A study of Mus musculus with 6 samples.

Results

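The chaperones of the cytosol and the mitochondrion form the protein folding machinery that a cell runs outside its secretory pathway. In the lens libraries of this series, 36 chaperone genes were chosen by symbol, and all 36 were found among the 41449 rows of the expression table. They were read in 6 libraries of lens RNA, 3 from fibronectin conditional knockout mice (FNcKO) and 3 from wild-type mice (WT), each library holding the 2 lenses of 1 sample. The knockout mice were on a mixed background of C57BL/6, 129 and FVB/N, and the wild types were C57BL/6, so genotype and strain background cannot be told apart in any difference given here. All mice were 2 months old, and the submitters' design text calls the samples of a genotype biological replicates. The labels name neither the Cre driver nor the floxed part of the fibronectin gene.

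Heat shock protein 90 (Hsp90) and heat shock protein 70 (Hsp70) are ATP-driven chaperones. Hsp70 takes up unfolded clients brought by J proteins and releases them with the help of nucleotide exchange factors of the Hsp110 and Bag families, and some clients, such as kinases and steroid receptors, pass on to Hsp90. The cytosolic chaperonin CCT is a double ring that folds actin and tubulin, which prefoldin delivers to it, while Hsp60 and its cap Hsp10 do the corresponding work inside mitochondria. Many of these genes can be switched on by the heat shock factor Hsf1. Fiber cells, which make up most of the lens, lose their organelles and keep their proteins for life, and the alpha crystallins that fill them are themselves small heat shock proteins.

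Heat shock factors bind inverted repeats of the letters GAA, called heat shock elements, and the promoters shown here are the one with the longest repeat, 1 with the next longest and those of a pair of near-copies whose values are hard to separate. RefSeq promoter windows (GRCm38.p6, 250 bases before to 50 after each annotated start) were at hand for 28 of the 36 genes. Each window was searched for GAANNTTC or TTCNNGAA (2 units), for GAANNTTCNNGAA or TTCNNGAANNTTC (3 units) and for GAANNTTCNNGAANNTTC or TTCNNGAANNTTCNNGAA (4 units), all of which read the same on both strands or are listed in both directions, and the longer ones contain the shorter ones. At least 1 match of 2 units was found for 12 of the 28 genes (42.9%), against 17.0% of the 27025 genes in the table. A match of 3 units was found for Hsph1, Hspd1, Hspe1 and Dnajb6 (14.3%), against 0.662% of all genes, and 1 of 4 units for Hspd1 and Hspe1 (7.14%), against 0.0296%. Hspd1, the gene of Hsp60, and Hspe1, the gene of Hsp10, are neighbours transcribed in opposite directions, and the 4 units lie in the stretch between their starts, 89 to 72 bases before the start of Hspe1. An annotated longer Hspd1 transcript runs across that stretch. It is shown with the repeat in capitals, followed by the 80 bases before the more upstream RefSeq start of Dnajb6 with its 3 units in capitals (the Dnajb6 row of the expression table begins further upstream and includes them), and by the 250 bases before the starts of Hspa1a and Hspa1b with their 2 units in capitals.
Hspe1 and Hspd1, chr1:55088028-55088117, strand +: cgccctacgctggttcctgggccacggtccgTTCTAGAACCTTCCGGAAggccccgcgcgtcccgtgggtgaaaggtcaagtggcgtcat
Dnajb6, chr5:29735818-29735897, strand +: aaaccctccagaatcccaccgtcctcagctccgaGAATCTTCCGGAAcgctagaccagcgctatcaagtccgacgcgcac
Hspa1a, chr17:34972157-34972406, strand -: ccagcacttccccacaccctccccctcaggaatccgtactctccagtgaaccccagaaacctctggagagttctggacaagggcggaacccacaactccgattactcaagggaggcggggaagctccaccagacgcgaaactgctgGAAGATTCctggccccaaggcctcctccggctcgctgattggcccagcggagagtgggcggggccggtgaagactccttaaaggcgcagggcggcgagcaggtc
Hspa1b, chr17:34959239-34959488, strand -: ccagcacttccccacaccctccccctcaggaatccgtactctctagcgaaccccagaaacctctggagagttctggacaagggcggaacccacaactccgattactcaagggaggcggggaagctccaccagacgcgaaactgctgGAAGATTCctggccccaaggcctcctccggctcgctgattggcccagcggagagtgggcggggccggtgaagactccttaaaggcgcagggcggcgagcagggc
The 250 bases of Hspa1a and Hspa1b differed at 3 positions, C44T, T47C and T249G (Hspa1a base first, counted from 1 at the 5′ end of the stretch). Matches are letters in a window and say nothing of binding.

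The libraries differed in ways that touch every value below. Values are the authors' deposited FPKM, in which fragment numbers are corrected for transcript length and sequencing depth. Depth, estimated from the low values of single-exon genes, was 19800000 to 21700000 fragments in FNcKO and 26400000 to 31700000 in WT. Crystallins took 28.9% to 37.1% of the FPKM of rows with a value in every library in FNcKO and 22.6% to 24.5% in WT, and the total of those rows ran from 1251386 to 1519627 FPKM in FNcKO and from 1631866 to 1725738 FPKM in WT. Fn1, the targeted gene, was low throughout, at 0.128, 0.0482 and 0.0942 FPKM in FNcKO replicates 1 to 3 and at 0.135, 0.188 and 0.253 FPKM in WT replicates 1 to 3, every FNcKO value below every WT value. Lens fiber markers were abundant in every library, and 11 of them summed to 168314 to 180630 FPKM in FNcKO and 168062 to 176150 FPKM in WT. Of the 12 tested, 8 lay above 0 in log2 change and 0 passed the test; Crybb2 stood at 87160 to 94678 FPKM in FNcKO and 94689 to 98591 FPKM in WT, and Cryaa at 44137 to 46186 FPKM in FNcKO and 37678 to 40686 FPKM in WT. The 10 lens epithelium markers summed to 1496 to 1719 FPKM in FNcKO and 1413 to 1470 FPKM in WT, with 5 of 10 above 0 and with Slc7a5 and Epha2 past the test and higher in FNcKO (limma adjusted p = 0.0159 and 0.0422). The 5 markers of ciliary body and iris that could be summed came to 51.3 to 69.0 FPKM in FNcKO and 20.2 to 29.3 FPKM in WT, with all 4 tested above 0 in log2 change and Aqp1 past the test. The 8 pigment cell markers came to 6.67 to 8.46 FPKM in FNcKO and 11.6 to 19.0 FPKM in WT. The largest part was Ttr, at 3.14 to 4.54 FPKM in FNcKO and 6.53 to 12.1 FPKM in WT. Tyr and Tyrp1, both low, had higher means in FNcKO (1.08-fold and 1.34-fold), and the other pigment cell markers lower means. Summed, 11 photoreceptor markers came to 40.7 to 40.8 FPKM in FNcKO and 26.9 to 77.9 FPKM in WT, with 10 of 11 tested below 0 in log2 change and Gnat1 past the test. The 5 cornea markers summed to 13.6 to 43.4 FPKM in FNcKO and 25.7 to 30.7 FPKM in WT, nearly all of it Aldh3a1, with Krt12 and Kera listed at 0 in every library. The 6 endothelium markers summed to 1.35 to 2.00 FPKM in FNcKO and 1.17 to 1.48 FPKM in WT, most of it Egfl7, with Cdh5 listed at 0 in every library. The values do not separate chaperone RNA by cell type, and the part of other cell types in the chaperone values was not tested.

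No chaperone gene passed the test between FNcKO and WT lenses. Of the 34 chaperone genes tested, 0 were higher and 0 were lower by limma at an adjusted p of 0.05. Among all 10149 genes tested, 0.857% were called higher in FNcKO and 1.03% lower (1.89% in all). The members' log2 changes ran from -0.54 to 0.28, with a median of -0.03 against -0.04 for all genes, and 20 of 34 (58.8%) lay under 0, against 60.3% of all genes. At an unadjusted p under 0.05, 11 of the 34 (32.4%) were counted, 3 higher and 8 lower, against 18.1% of all genes (6.74% higher and 11.4% lower). That count was 7 after quantile normalization (17.6% of all genes), 6 with every library's FPKM total made equal (15.5%) and 7 with that total made equal without crystallins (20.9%). It stayed at 11 with median-ratio scaling (19% of all genes), with no filter (10.7%), with a pseudocount of 0.1 (18.4%) and with robust empirical Bayes (17.9%). It was 10 without FNcKO replicate 2 (17.9% of all genes) and 5 to 7 without any other single library (12.9% to 17.5%). Without crystallins in the total, 2 members lay under 0, where the median log2 change of all genes was 0.29. Groups that did not overlap were seen for 13 of the 34 (38.2%), 5 higher and 8 lower in FNcKO, against 25.6% of all genes (9.31% higher and 16.3% lower). In bulk RNA, fewer cells of a type and less RNA per cell cannot be told apart.

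In the deposited scaling, the 95% interval of the log2 change lay within 1.5-fold in either direction for 32 of the 34 genes and within 2-fold for all 34, on the log2(FPKM + 1) scale. Adding 1 to each value makes the change of a low gene look smaller than it is. The exceptions at 1.5-fold were Hspa2 and Bag3. With the same FPKM total without crystallins, the estimates themselves reached 0.70 for Dnajb1 and 0.64 for Ahsa1 on the log2 scale, past 1.5-fold. Among all genes, 7842 of 10149 had an interval within 1.5-fold and 9270 within 2-fold.

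**Figure D1:**
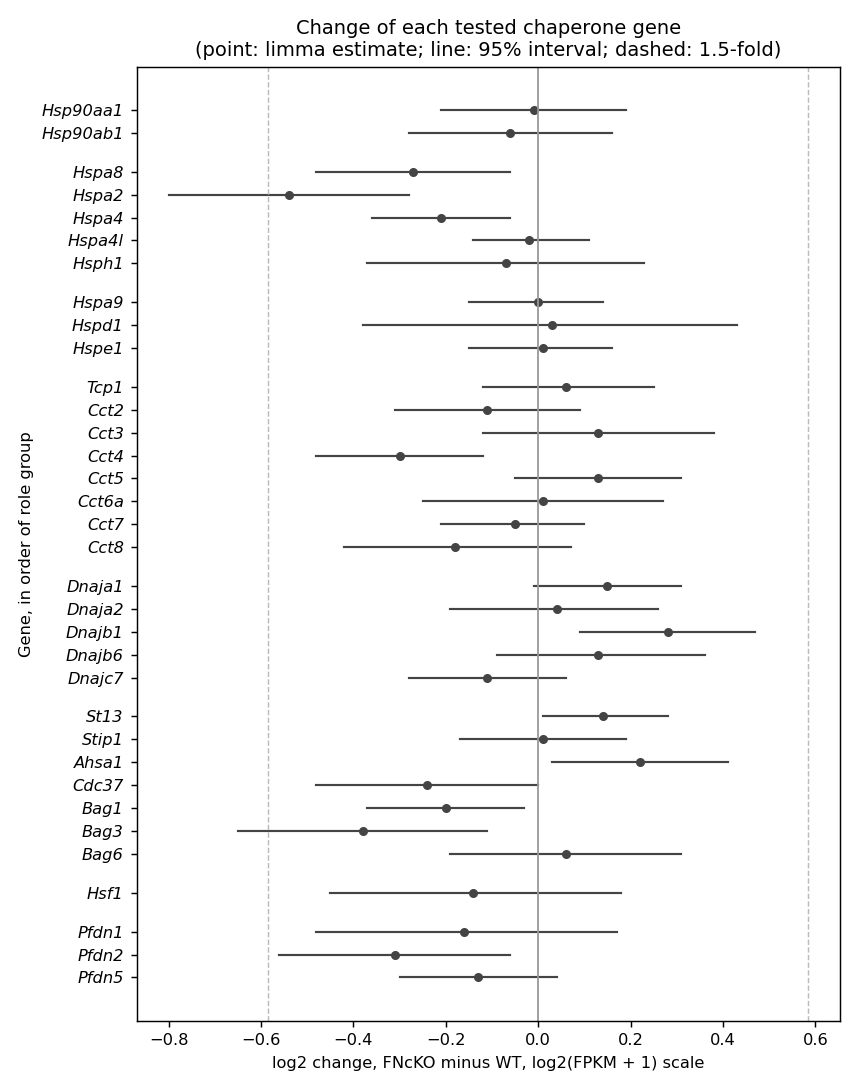
Log2 change of the 34 tested chaperone genes (FNcKO minus WT, log2(FPKM + 1) scale, x axis) by role group (y axis), with the limma estimate as a point, its 95% interval as a line and 1.5-fold as dashed lines. Hspa2 stands farthest to the left at -0.54, Dnajb1 farthest to the right at 0.28, and 32 intervals stay inside the dashed lines.

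The members were mostly abundant: 32 of the 34 tested lay above the median of all tested genes (3.83 FPKM), their own median was 25.3 FPKM, and 13 were among the 1000 most abundant genes of the lens. Constitutive forms led, with Hsp90ab1 at rank 117, Hspa8 at rank 131 and the prefoldin gene Pfdn5 at rank 220 of 10149. The heat-inducible Hspa1a and Hspa1b lay below the filter of 1 FPKM and were the 2 members not tested.

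**Figure D2:**
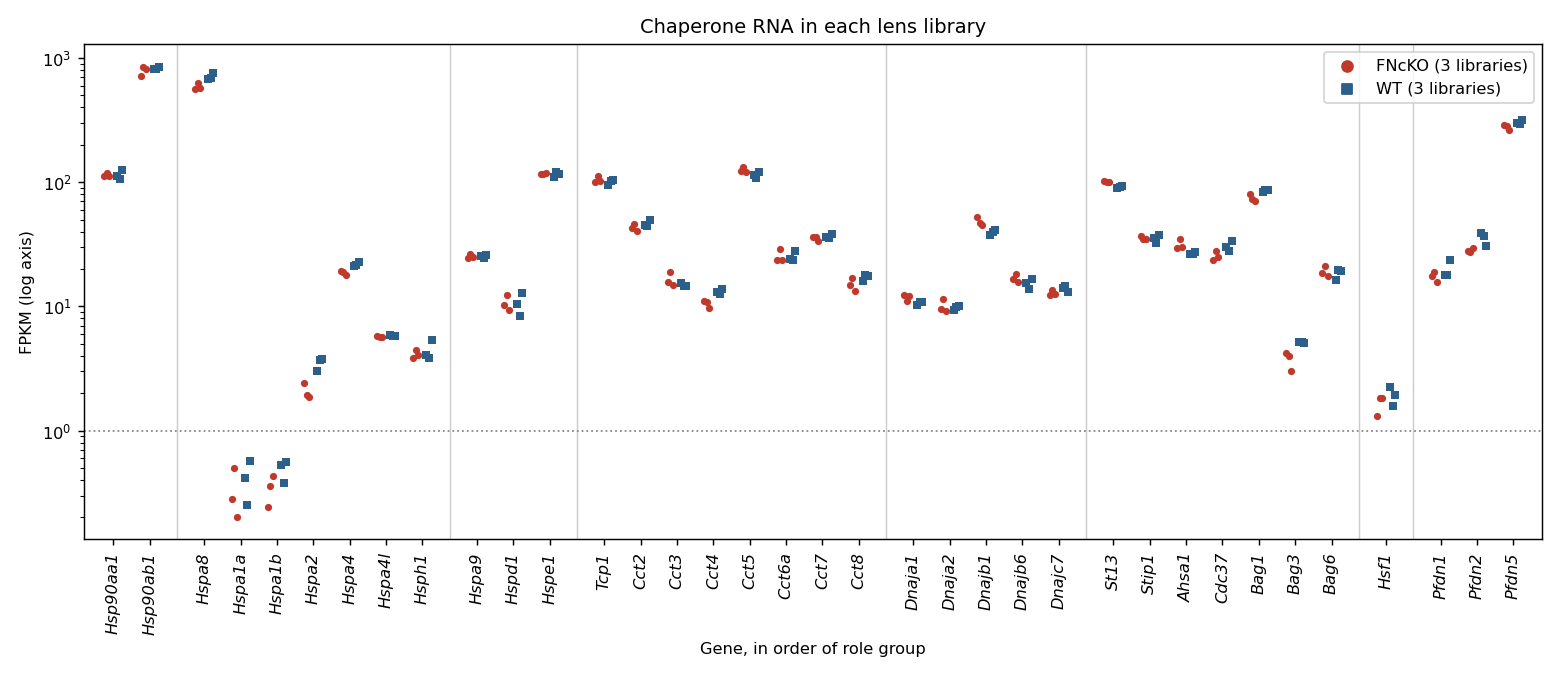
FPKM of all 36 chaperone genes in each library (log y axis) by role group (x axis), with FNcKO libraries as red circles left of WT libraries as blue squares and the filter of 1 FPKM as a dotted line. Hsp90ab1 and Hspa8 stand highest in both genotypes and Hspa1a and Hspa1b lowest, below 1 FPKM in all 6 libraries.

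Hsf1, the factor that switches on heat shock genes, had the lowest level of the tested members. It stood at 1.32, 1.83 and 1.83 FPKM in FNcKO replicates 1 to 3 and at 2.24, 1.57 and 1.95 FPKM in WT replicates 1 to 3. The groups overlapped, and the log2 change was -0.14 (95% interval -0.45 to 0.18, limma adjusted p = 0.636). Its relative Hsf4, the heat shock factor known for its role in fiber cell development and in hereditary cataract, was far more abundant, at 61.1, 62.8 and 54.0 FPKM in FNcKO against 46.4, 47.8 and 54.7 FPKM in WT. FNcKO replicate 3 lay just under the highest WT library, and Hsf4 missed the threshold (log2 change 0.25, limma adjusted p = 0.249). Hsf2, a further factor of the family, stood at 2.31 ± 0.368 FPKM in FNcKO and 2.05 ± 0.118 FPKM in WT (SD, n = 3 each; limma adjusted p = 0.611).

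Hsp90ab1, the constitutive cytosolic form, had the highest level of the 36 members. It stood at 721.9, 854.1 and 808.4 FPKM in FNcKO and at 813.2, 816.9 and 850.6 FPKM in WT. The highest and the lowest of the 6 libraries were both FNcKO, and the log2 change was -0.06 (95% interval -0.28 to 0.16, limma adjusted p = 0.771). The inducible form Hsp90aa1 stood at 112.0, 118.7 and 112.3 FPKM in FNcKO and at 113.2, 106.6 and 125.8 FPKM in WT, with the FNcKO values inside the WT range (limma adjusted p = 0.973). Within a library, Hsp90aa1 was 0.155, 0.139 and 0.139 of Hsp90ab1 in FNcKO and 0.139, 0.130 and 0.148 of it in WT. A single scaling factor per library cancels in such a ratio. An exact two-sided permutation test of the log2 ratio gave p = 0.6, where the smallest possible with 3 against 3 is 0.1.

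The partners of Hsp90 did not all lie on one side. Ahsa1, which activates the Hsp90 ATPase, stood at 29.8, 34.7 and 29.9 FPKM in FNcKO and at 26.6, 26.3 and 27.6 FPKM in WT. Every FNcKO value lay above every WT value, 1.17-fold by the means (log2 change 0.22, 95% interval 0.03 to 0.41, limma adjusted p = 0.228). Cdc37, which brings kinases to Hsp90, stood at 23.8, 27.9 and 25 FPKM in FNcKO and at 29.9, 27.8 and 33.6 FPKM in WT. Here the groups touched at FNcKO replicate 2 and WT replicate 2, and the log2 change was -0.24 as deposited (limma adjusted p = 0.275) but 0.17 after scaling to a common FPKM total without crystallins. Stip1, the adaptor that joins Hsp70 to Hsp90, stood at 35.6 ± 0.978 FPKM in FNcKO and 35.4 ± 2.60 FPKM in WT (SD, n = 3 each; limma adjusted p = 0.958). The ratio of Ahsa1 to Cdc37 within a library was 1.26, 1.24 and 1.2 in FNcKO and 0.891, 0.946 and 0.822 in WT. That ratio was chosen after the values were seen, so it is a description only.

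All 5 tested Hsp70 and Hsp110 genes had a log2 change under 0 as deposited, of which Hspa8, Hspa4, Hspa4l and Hsph1 turned above 0 with the same FPKM total without crystallins. Hspa8, the constitutive Hsc70, stood at 566.9, 632.2 and 569.4 FPKM in FNcKO and at 674.4, 694.9 and 759.1 FPKM in WT. Every FNcKO library lay below every WT library, 1.2-fold by the means, but the log2 change of -0.27 missed the threshold (95% interval -0.48 to -0.06, limma adjusted p = 0.196) and was 0.10 after quantile normalization and 0.16 with the same FPKM total without crystallins. The Hspa8 row holds 3 small nucleolar RNA rows, Snord14c, Snord14d and Snord14e, inside its span, and whether their fragments were counted for Hspa8 is not given in the sources used here. Hspa2 (chromosome 12, 76403854 to 76406938), an Hsp70 best known from the testis, stood at 2.43, 1.94 and 1.87 FPKM in FNcKO and at 3.0, 3.68 and 3.74 FPKM in WT. All FNcKO values lay below all WT values, 1.67-fold by the means, which was the widest separation among the members (log2 change -0.54, SE 0.11, limma adjusted p = 0.0753). Its log2 change stayed under 0 under the 4 other scalings, and it passed in 1 of the 14 alternative fits, with robust empirical Bayes (adjusted p = 0.0495).

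Among the nucleotide exchange factors of the Hsp110 family, Hspa4 differed most. It stood at 19.3, 19.0 and 17.8 FPKM in FNcKO and at 21.1, 21.5 and 22.6 FPKM in WT. The groups did not overlap (log2 change -0.21, limma adjusted p = 0.170), though the change was 0.03 and 0.20 with the 2 same-total scalings. Hspa4l varied little, at 5.68 to 5.80 FPKM in FNcKO and 5.76 to 5.86 FPKM in WT (log2 change -0.02, 95% interval -0.14 to 0.11). Hsph1, whose window holds 3 heat shock element units just after its start, stood at 3.88 to 4.49 FPKM in FNcKO and 3.83 to 5.41 FPKM in WT (limma adjusted p = 0.808).

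The heat-inducible Hsp70 genes were listed at under 1 FPKM in every library. Hspa1a stood at 0.282, 0.505 and 0.202 FPKM in FNcKO and at 0.415, 0.252 and 0.566 FPKM in WT, about 10 to 28 fragments a library in FNcKO and 19 to 39 in WT. Hspa1b stood at 0.245, 0.360 and 0.428 FPKM in FNcKO and at 0.531, 0.382 and 0.563 FPKM in WT, about 14 to 22 fragments in FNcKO and 28 to 44 in WT. The groups overlapped for both genes, and without the filter on low values their limma adjusted p were 0.794 and 0.610. Their annotated transcripts are 99.3% identical over 2197 aligned bases, so the division of fragments between them is uncertain. How fragments that map to both copies were counted is not given in the sources used here. The level of the pair is therefore uncertain too, and would be too low if such fragments were dropped. Summed, Hspa1a and Hspa1b were 0.000930, 0.00137 and 0.00111 of Hspa8 in FNcKO and 0.00140, 0.000912 and 0.00149 of it in WT (exact two-sided permutation p = 0.6, smallest possible 0.1).

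J proteins hand clients to Hsp70 and start its ATP cycle. Of the 5 members, 4 had a log2 change above 0 in the deposited values, while of 16 further J protein genes tested 4 lay above 0 and 12 below (median -0.07). Dnajb1 (Hsp40, chromosome 8, 83608175 to 83612653) stood at 52.0, 47.2 and 45.1 FPKM in FNcKO and at 37.3, 39.8 and 41.0 FPKM in WT. Every FNcKO library lay above every WT library, 1.22-fold by the means (log2 change 0.28, 95% interval 0.09 to 0.47, limma adjusted p = 0.156), and the change stayed above 0 under the 4 other scalings. Dnaja1, a further cytosolic J protein, stood at 12.4, 11.1 and 12.2 FPKM in FNcKO and at 10.3, 10.8 and 10.9 FPKM in WT. These groups did not overlap either (log2 change 0.15, limma adjusted p = 0.305). Dnajb6, a J protein that holds back aggregation, Dnaja2 and Dnajc7, which carries tetratricopeptide repeats, had overlapping groups and log2 changes of 0.13, 0.04 and -0.11. Summed over the 5 genes, J protein RNA was 103.0, 101.8 and 94.8 FPKM in FNcKO and 86.5, 88.9 and 91.8 FPKM in WT. That was 1.1-fold as deposited and between 1.16-fold and 1.52-fold under the other scalings, where the median log2 change of all genes ran from -0.01 to 0.29. The median is on the log2(FPKM + 1) scale, where low genes shift less than sums of FPKM, so the measures are unlike. The 7 Hsp70 and Hsp110 genes, summed in the same way, were 0.832-fold as deposited, 0.857-fold and 0.998-fold with median-ratio and same-total scaling, and 1.07-fold and 1.14-fold after quantile normalization and with the same total without crystallins.

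The ratio of Dnajb1 to Hspa8 within a library separated the genotypes. Dnajb1 was 0.0917, 0.0747 and 0.0791 of Hspa8 in FNcKO and 0.0552, 0.0573 and 0.0541 of it in WT, 1.47-fold higher in FNcKO by the means. The lowest FNcKO ratio lay above the highest WT ratio. A single scaling factor per library cancels in this ratio, but quantile normalization, which acts by level, can change it. After that normalization the log2 changes were 0.41 for Dnajb1 and 0.10 for Hspa8, against 0.28 and -0.27 as deposited. The pair was chosen after its values were seen, and no test is given.

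**Figure D3:**
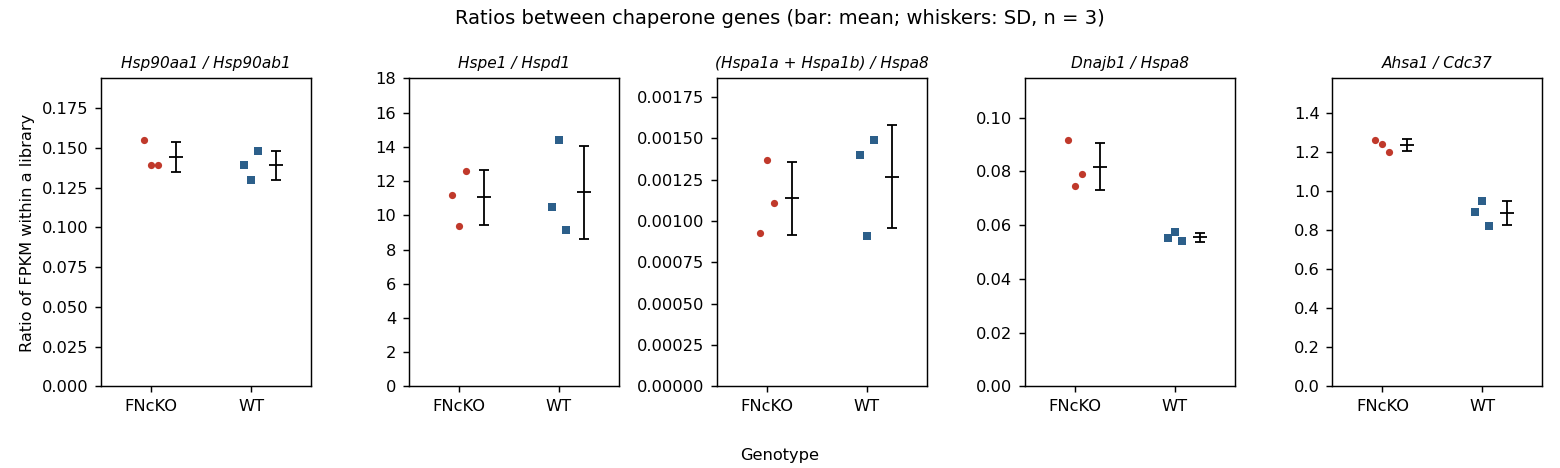
Ratio of the FPKM of chaperone genes within each library (y axes, each from 0), with FNcKO (red circles) left of WT (blue squares) and the mean and SD (n = 3) as bars with whiskers. The Dnajb1 to Hspa8 and Ahsa1 to Cdc37 ratios, chosen after their values were seen, separate the genotypes, while the other 3 overlap.

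Among the remaining partners of Hsp70, the Bag proteins release nucleotide and client. Bag3, the Bag protein of stress and of selective autophagy, stood at 4.24, 4.02 and 3.0 FPKM in FNcKO and at 5.15, 5.14 and 5.10 FPKM in WT. The WT libraries were almost equal and all FNcKO libraries lay below them, 1.37-fold by the means (log2 change -0.38, 95% interval -0.65 to -0.11, limma adjusted p = 0.170). Bag1 stood at 79.7, 73.5 and 70.3 FPKM in FNcKO and at 83.9, 86.5 and 86.2 FPKM in WT, again without overlap (log2 change -0.20, limma adjusted p = 0.220), but its change was 0.05 and 0.23 with the same-total scalings. Bag6, which guards newly made membrane proteins, had overlapping groups (17.7 to 21.3 FPKM in FNcKO, 16.3 to 19.5 FPKM in WT). St13 (Hip), which steadies Hsp70 in its client-bound state, was the most abundant of this group, at 102.0, 100.4 and 100.9 FPKM in FNcKO and at 90.2, 91.5 and 92.5 FPKM in WT. The replicates lay close together and the groups did not overlap, 1.11-fold by the means (log2 change 0.14, 95% interval 0.01 to 0.28, limma adjusted p = 0.251).

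The 3 mitochondrial members summed to 150.3, 154.2 and 152.3 FPKM in FNcKO and 145.8, 153.1 and 155.9 FPKM in WT. These groups overlapped as deposited, but stood apart and higher in FNcKO with the same-total scalings (1.2-fold, and 1.36-fold without crystallins). The median log2 change of all genes was 0.15 and 0.29 under those scalings. That median is on the log2(FPKM + 1) scale, where low genes shift less than sums of FPKM, so the measures are unlike. A same-total scaling multiplies every gene of a library alike and does not change levels relative to other genes. Hspe1 was at 115.4, 115.4 and 118.2 FPKM in FNcKO and at 109.9, 120.0 and 117.2 FPKM in WT. Its neighbour Hspd1 was at 10.3, 12.3 and 9.37 FPKM in FNcKO and at 10.4, 8.35 and 12.8 FPKM in WT. FNcKO values lay inside the WT range for both, with log2 changes of 0.01 (95% interval -0.15 to 0.16) and 0.03 (95% interval -0.38 to 0.43). The genes lie on either side of the stretch shown above, and Hspe1 RNA stood 11.2, 9.36 and 12.6 times as high as Hspd1 in FNcKO and 10.5, 14.4 and 9.17 times as high in WT (exact two-sided permutation p = 1, smallest possible 0.1). The 2 rows overlap by 70 bases, and the annotated transcript of Hspe1 is short (774 nucleotides, against 2423 for Hspd1), so its FPKM depends more on the length used. Hspa9, the mitochondrial Hsp70, stood at 24.6 to 26.5 FPKM in FNcKO and 24.7 to 25.9 FPKM in WT (limma adjusted p = 0.984).

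The 8 genes of the CCT ring, whose subunits sit side by side in the protein, differed widely in RNA. Cct5 was highest and Cct4 lowest in all 6 libraries, 11.1, 12.3 and 12.5 times apart in FNcKO and 8.71, 8.63 and 8.70 times apart in WT. Cct5 stood at 122.5, 133.0 and 120.8 FPKM in FNcKO and at 114.0, 108.4 and 120.5 FPKM in WT. The lowest FNcKO and the highest WT value nearly met, without overlap (log2 change 0.13, limma adjusted p = 0.413). Cct4 stood at 11, 10.8 and 9.66 FPKM in FNcKO and at 13.1, 12.6 and 13.8 FPKM in WT. All FNcKO libraries lay below all WT libraries, 1.26-fold by the means (log2 change -0.30, 95% interval -0.48 to -0.12, limma adjusted p = 0.117), although the change was 0.09 with the same FPKM total without crystallins. Cct4 took 2.79% ± 0.176 of the summed CCT FPKM in FNcKO and 3.57% ± 0.0741 in WT, while Cct5 took 33.3% ± 0.420 and 31.0% ± 0.777 and Tcp1 27.9% ± 0.410 and 27.3% ± 0.965 in FNcKO and WT (SD, n = 3 each).

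The order of the subunits was nearly fixed. Cct5, Tcp1, Cct2, Cct7 and Cct6a held the first 5 places in every library. Below them Cct3 lay above Cct8 in all 3 FNcKO libraries and below it in all 3 WT libraries. Cct3 stood at 15.6, 19.1 and 14.8 FPKM in FNcKO and at 15.4, 14.6 and 14.6 FPKM in WT. Cct8 stood at 14.9, 16.9 and 13.3 FPKM in FNcKO and at 15.9, 17.9 and 17.5 FPKM in WT. Neither gene passed the test (limma adjusted p = 0.559 for Cct3 and 0.415 for Cct8), and the exchange was noticed after the values were seen. Tcp1, Cct2, Cct6a and Cct7 had overlapping groups and log2 changes of 0.06, -0.11, 0.01 and -0.05. The summed CCT RNA came to 367.4, 404.2 and 357.8 FPKM in FNcKO and 359.5, 359.3 and 385.9 FPKM in WT. The sums overlapped as deposited (1.02-fold) but stood apart, higher in FNcKO, under the 4 other scalings. They were 1.05-fold with median-ratio scaling, 1.1-fold after quantile normalization, 1.23-fold with the same total and 1.4-fold without crystallins. The median log2 change of all genes was -0.01, 0.01, 0.15 and 0.29 under these scalings. That median is on the log2(FPKM + 1) scale, where low genes shift less than sums of FPKM, so the measures are unlike. Except for quantile normalization, each scaling multiplies every gene of a library alike and does not change levels relative to other genes. The share of all genes whose groups stood apart under these scalings was not counted.

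**Figure D4:**
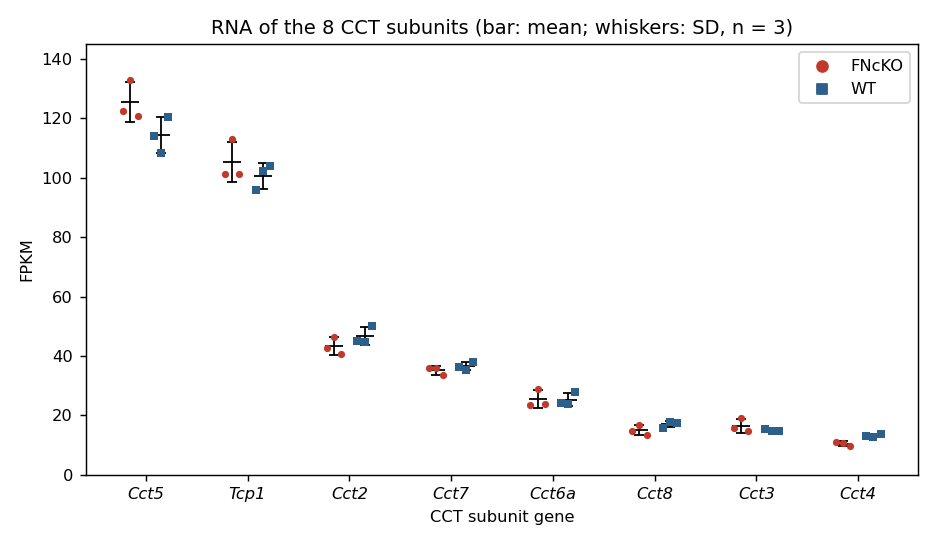
FPKM of the 8 CCT subunit genes (x axis, in falling order; y axis from 0) in FNcKO (red circles) and, to their right, WT libraries (blue squares), with the mean and SD (n = 3). Cct5 and Tcp1 stand near or above 100 FPKM and Cct3, Cct8 and Cct4 at 9.66 to 19.1 FPKM in both genotypes.

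Prefoldin, which carries unfolded actin and tubulin to CCT, was represented by 3 of its subunits. Pfdn5 stood at 287.4, 282.9 and 263.7 FPKM in FNcKO and at 301.6, 296.5 and 316.9 FPKM in WT. Pfdn2 stood at 28.2, 27.3 and 29.4 FPKM in FNcKO and at 38.9, 37.2 and 30.6 FPKM in WT. For both, all FNcKO values lay below all WT values, with log2 changes of -0.13 and -0.31 (limma adjusted p = 0.383 and 0.198), and WT replicate 3 came closest to the FNcKO libraries for Pfdn2. The sign of Pfdn5 turned under quantile normalization (0.13) and both same-total scalings, and that of Pfdn2 with the same total without crystallins (0.10). Pfdn1 had overlapping groups (15.8 to 19.0 FPKM in FNcKO, 17.8 to 23.5 FPKM in WT; limma adjusted p = 0.590). Pfdn5 took 85.9% ± 0.433 of the summed FPKM of the 3 genes in FNcKO and 84.6% ± 0.668 in WT (SD, n = 3 each).

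The choice of scaling between libraries moved most of these values. The median log2 change of all genes was -0.04 as deposited, -0.01 with median-ratio scaling, 0.01 after quantile normalization, 0.15 with the same FPKM total and 0.29 with the same total without crystallins, and the members' median moved along with it (-0.03, 0.00, 0.07, 0.20 and 0.37). Relative to the median of all genes, 17 members lay above and 11 below under all 5 scalings, and 6 changed side. Except for quantile normalization, the scalings differ by a single factor per library. This measure removes such a factor, apart from the effect of the added pseudocount and the filter. Agreement among those scalings was therefore largely fixed in advance and is no check of the order of the members. Dnajb1 (0.32 to 0.41), Ahsa1 (0.26 to 0.34), St13 (0.19 to 0.27) and Dnaja1 (0.18 to 0.25) were highest as deposited by this measure. Hspa2 (-0.52 to -0.50), Bag3 (-0.35 to -0.32), Pfdn2 (-0.27 to -0.19) and Cct4 (-0.27 to -0.20) were lowest, while Hspa8, Hsp90ab1 and Pfdn5 were among those that changed side.

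**Figure D5:**
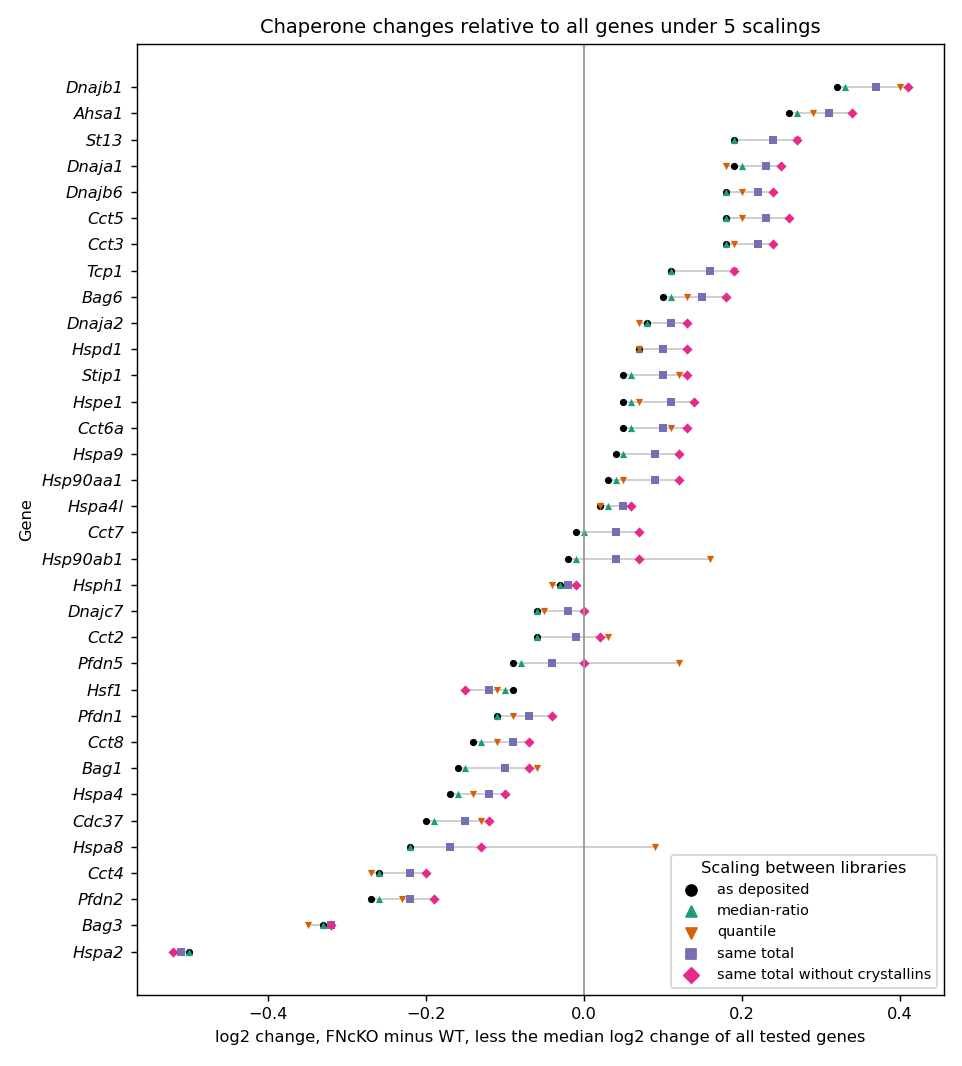
Log2 change of each tested chaperone gene (FNcKO minus WT) less the median log2 change of all tested genes (x axis), by gene (y axis), with 1 symbol for each of 5 scalings between libraries. Dnajb1 and Ahsa1 stay at the upper end and Hspa2 and Bag3 at the lower end, while Hspa8 and Pfdn5 cross 0 after quantile normalization. The other scalings differ by a single factor per library, which subtracting the median largely removes, so their symbols lie close together by construction.

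A list of 76 further genes, chosen by known function, had 70 above the filter, of which 0 were higher and 0 lower by limma at an adjusted p of 0.05. At an unadjusted p under 0.05 there were 10 of the 70, 5 in each direction, against 18.1% of all genes (6.74% higher and 11.4% lower). The median log2 change was -0.06. Groups did not overlap for 13 of the 70, 6 higher and 7 lower in FNcKO, against 25.6% of all genes (9.31% higher and 16.3% lower). Trap1, the mitochondrial Hsp90, stood apart in size. It was at 5.37, 5.61 and 5.83 FPKM in FNcKO and at 1.53, 2.63 and 3.72 FPKM in WT. FNcKO libraries lay close together above all WT libraries, 2.13-fold by the means, while the WT libraries were spread widely (log2 change 0.91, 95% interval 0.37 to 1.45, limma adjusted p = 0.118). Tomm70a, the import receptor of the outer mitochondrial membrane that docks chaperones, was the next by p among the mitochondrial partners, at 9.90 ± 0.724 FPKM in FNcKO and 11.3 ± 0.900 FPKM in WT (SD, n = 3 each; limma adjusted p = 0.355).

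In the cytosol, Fkbp5, an Hsp90 partner that is a known target of glucocorticoids, stood at 2.01, 1.18 and 1.26 FPKM in FNcKO and at 2.27, 2.22 and 2.23 FPKM in WT. The groups did not overlap, with FNcKO replicate 1 near the WT libraries (log2 change -0.40, limma adjusted p = 0.213). Nudc, another Hsp90 partner, had a log2 change of -0.21 (limma adjusted p = 0.256). Hspa14, an Hsp70 relative bound to ribosomes, stood at 3.40 to 3.81 FPKM in FNcKO and 2.67 to 3.12 FPKM in WT, 1.23-fold by the means without overlap (limma adjusted p = 0.193), and Bag2 had an adjusted p of 0.540. The J protein genes Dnajb14 and Dnajb2 had log2 changes of -0.30 and 0.17 (limma adjusted p = 0.231 and 0.241). Tbca, a cofactor of tubulin folding downstream of CCT, stood at 86.3 ± 6.45 FPKM in FNcKO and 98.8 ± 3.67 FPKM in WT (SD, n = 3 each; limma adjusted p = 0.269), and Pdcl, a regulator of CCT, had an adjusted p of 0.384.

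The libraries of a group also differed in order. Of the 34 tested members, 21 had their highest FNcKO value in replicate 2, the library with the lowest FPKM total and the highest crystallin share, and 18 their lowest in FNcKO replicate 3. In WT, 24 had their highest value in replicate 3 and 17 their lowest in replicate 2. These counts were not made for all genes, and a link to FPKM total or crystallin share was not tested. Rows of 11 members overlap another row of the table, among them Tcp1 with Mrpl18 and Acat3 and Dnaja1 with the microRNA gene Mir207, and the use of strand in counting is not given in the sources used here, so overlapping fragments cannot be assigned.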

How the data were processed

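Total RNA of microdissected lenses was made into libraries with a stranded kit for very small inputs, per the labels' protocols. The authors deposited 1 table of FPKM values with a column per library. The submitters' processing notes list FastQC, cutadapt 1.12, TopHat2 2.1.0 and Cuffdiff 2.2.1, with mm10 and GRCm38.p5 as builds. How strand, multiply mapping fragments and scaling between libraries were handled, and which annotation, is not given in the sources used here. Starts were raised by 1 to count from 1, since 23 of the 36 members then matched RefSeq. WT replicate 2 has no value in 3578 rows (8.63%), none of them a member's, and 1 unreadable entry was left empty.

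Genes averaging 1 FPKM or more (10149) were kept, and log2(deposited FPKM + 1) was fitted in R 4.3.3 by limma 3.58.1, with genotype as the term, a trended empirical Bayes variance and two-sided tests, with Benjamini-Hochberg adjustment over all genes and a threshold of 0.05. Folds are ratios of mean FPKM, or WT over FNcKO where lower. Genes with no value in WT replicate 2 were fitted on 5 libraries. Ratios within a library were compared by exact permutation. The members and lists were chosen with earlier results of these data known. All members could be named. Values per library were given for the most abundant member and the member with the smallest p of each role group and for the ratio genes, and others were added after their values were seen. The 2 genes with the smallest p of each further list were named.

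Depth was searched for as the value that best made single-exon FPKM × (length − 200) whole; 65.4% to 72.8% of values lay within 0.15 of a whole number, where 30% would at a fixed depth. It entered no test. Fragment numbers carry counting error and the error of the estimated depth and of the assumed length, and for near-identical genes that of fragment assignment. The fit was tested on simulated data. Alternatives were another pseudocount, no filter, 4 scalings, a replicate block, robust empirical Bayes and leaving out each library.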

Additional observations from a re-analysis of the deposited data

How the results depend on the processing

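The count of 0 members past the limma threshold held under 13 of the 14 alternatives. With robust empirical Bayes 1 member passed, lower in FNcKO, Hspa2 (log2 change -0.54, adjusted p = 0.0495; its adjusted p is 0.0753 in the reported fit). The count over all genes, 192, was 101 with no filter, 93 with the same FPKM total, 89 with the same total without crystallins and 323 with robust empirical Bayes, and 48 to 111 when 1 library was left out. Calls higher in FNcKO made up 45.3% as deposited, 56.0% with median-ratio scaling, 60.4% after quantile normalization, 72.0% with the same FPKM total and 77.5% with the same total without crystallins. With the replicate number as a block, 14 genes and 0 members were called, and 4 members had an unadjusted p under 0.05 (14.7% of all genes did). Same-numbered libraries did not deviate together (correlations -0.03, -0.05 and -0.05), no FNcKO library correlated best with its own number, and the block's permutation p of the 3 ratios were 0.5, 1 and 0.75. Signs turned, all in members that did not pass the test, as follows (log2 change). Under median-ratio scaling, the values were Hsp90aa1 0.03, Hspa4l 0.02, Hspa9 0.04. Under quantile normalization, the values were Hsp90aa1 0.06, Hsp90ab1 0.16, Hspa8 0.10, Hspa4l 0.02, Hspa9 0.09, Cct2 0.03, Cct7 0.05, Pfdn5 0.13. Under the same FPKM total, the values were Hsp90aa1 0.24, Hsp90ab1 0.19, Hspa4 0.03, Hspa4l 0.20, Hsph1 0.13, Hspa9 0.24, Cct2 0.14, Cct7 0.19, Cct8 0.06, Dnajc7 0.13, Cdc37 0.00, Bag1 0.05, Hsf1 0.03, Pfdn1 0.08, Pfdn5 0.12. Under the same FPKM total without crystallins, the values were Hsp90aa1 0.42, Hsp90ab1 0.37, Hspa8 0.16, Hspa4 0.20, Hspa4l 0.35, Hsph1 0.28, Hspa9 0.41, Cct2 0.31, Cct4 0.09, Cct7 0.37, Cct8 0.23, Dnajc7 0.29, Cdc37 0.17, Bag1 0.23, Hsf1 0.15, Pfdn1 0.25, Pfdn2 0.10, Pfdn5 0.29. Over the fits that left out 1 library, the values ran as follows: Bag6 -0.02 to 0.11, Cct6a -0.08 to 0.08, Dnaja2 -0.06 to 0.09, Hsp90aa1 -0.06 to 0.06, Hsp90ab1 -0.11 to 0.01, Hspa9 -0.04 to 0.02, Hspd1 -0.12 to 0.16, Hspe1 -0.03 to 0.03, Hsph1 -0.15 to 0.05, Stip1 -0.05 to 0.06. The log2 ratio of Hsp90aa1 to Hsp90ab1 ran from -0.00 to 0.10 and that of Hspe1 to Hspd1 from -0.16 to 0.16 in the same way, and a pseudocount of 1 gave 0.09 for the inducible pair over Hspa8, where the reported value is -0.14. The cause of these turns was not tested. The 2 inducible Hsp70 genes, each listed under 1 FPKM in every library, had about 10 to 28 and 14 to 22 fragments in FNcKO libraries. The part of depth in their values was not tested.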
